A study of Mus musculus with 35 samples.

Results

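KLF4 is a zinc-finger transcription factor of the naive pluripotency network, and its binding in mouse embryonic stem cells (ESC) was compared here between 2 culture media, serum with LIF alone and the same medium with the 2i inhibitors. The members were the peaks of the 4 KLF4 ChIP-seq lists of ESC on chromosomes 1 to 19 and X, 2 lists per medium, out of 22 peak lists and 35 samples in the series. Peaks of the 4 lists were merged where they overlapped, which gave 54904 regions. A region was called serum-specific when both serum lists and no 2i list held a peak in it (3347 regions), 2i-specific in the converse case (2010 regions) and common when all 4 lists held a peak (9253 regions). The other 40294 regions belonged to no class. Peaks were merged and classed by presence alone, so the widths, scores and folds of the KLF4 peaks below describe the classes and were not tested between them.

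All 4 libraries came from unsorted cells of the V6.5 line, a C57BL/6 x 129 ESC line, grown on irradiated feeder cells with serum and LIF. The 2i cells received in addition 1 µM of an inhibitor of MEK and 3 µM of an inhibitor of GSK3, so 2i stands here for serum, LIF and 2i together. ESC H3K27ac lists came from V6.5 cells without inhibitors, and no H3K27ac list of 2i cells was used here. Libraries of day 3, day 6 and day 9 came from fibroblasts that carry a doxycycline-inducible cassette of Oct4, Klf4, Sox2 and Myc in the Col1a1 locus and the M2rtTA activator in Rosa26. These cells were kept in the ESC medium without inhibitors, with doxycycline and ascorbic acid, and were sorted for SSEA1 at day 6 and day 9. KLF4 of the transgene and of the cells' own gene cannot be told apart in these lists.

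MEK is the kinase that activates ERK, and ERK signalling favours exit from naive pluripotency. GSK3 marks β-catenin for destruction, so its inhibition raises β-catenin and relieves repression by TCF7L1 (also called TCF3). KLF4 acts downstream of LIF and STAT3, binds G-rich sites with a GGGTGTGG- or GGGCGTGG-like core, and occupies promoters and enhancers of the pluripotency network. H3K27ac is an acetyl mark of active enhancers and promoters.

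Each of the 4 libraries carried its own batch label, serum library 1 EA-2697, serum library 2 EA-2643, 2i library 1 EA-3702 and 2i library 2 DG-3012. Medium and batch therefore cannot be told apart. Peak names inside the list of 2i library 1 do not carry the 2i tag that those of 2i library 2 carry, and the labels of the sample place it in 2i. Nothing in the labels says whether the 2 libraries of a medium are separate cultures, so a p-value here measures only the spread between these samples. Read depth is unknown. The lists end at a −log10 p between 2 and 2.01, and KLF4 signal below that limit counts as absent here. All 10 ESC marker genes had H3K27ac at their start in both ESC lists, which are of cells without inhibitors. KLF4 peaks stood at the start of 7 and 9 of them in the serum lists and of 8 in each 2i list. Of 12 fibroblast marker genes, 6 and 4 had H3K27ac at the start in these lists, against 12 in both fibroblast lists, and 1 to 4 had a KLF4 peak there in the 4 KLF4 lists. The part of feeder cells in the regions was not tested.

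The promoters of 5 genes are shown as examples of start sites under class regions, which most medium-specific regions do not cover: a start lay inside 4.72% of the serum-specific and 10.1% of the 2i-specific regions. They are listed start sites of genes of the pathway lists that lie inside a class region: Stat3 was the only one under a serum-specific region, Axin2 and Dnmt3l were among 4 under a 2i-specific one, and Tdgf1 and Zfp42 had the best-scored common regions. The class of the Axin2 region ends when peaks within 100 bp are merged, since a neighbouring region held a peak of serum library 2. Each window runs 5′ to 3′ along the gene from 250 bases before to 50 after the start (RefSeq, GRCm38.p6), and capitals mark GGGNGTGG, the KLF-type core, on either strand.
Stat3 (serum-specific), chr11:100939491-100939790, minus strand: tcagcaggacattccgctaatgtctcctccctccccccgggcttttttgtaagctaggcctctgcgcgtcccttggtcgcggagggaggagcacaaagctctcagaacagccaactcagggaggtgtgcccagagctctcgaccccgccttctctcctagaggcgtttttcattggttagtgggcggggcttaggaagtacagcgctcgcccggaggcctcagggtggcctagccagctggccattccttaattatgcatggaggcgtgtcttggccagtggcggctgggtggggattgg
Axin2 (2i-specific), chr11:108920099-108920398, plus strand: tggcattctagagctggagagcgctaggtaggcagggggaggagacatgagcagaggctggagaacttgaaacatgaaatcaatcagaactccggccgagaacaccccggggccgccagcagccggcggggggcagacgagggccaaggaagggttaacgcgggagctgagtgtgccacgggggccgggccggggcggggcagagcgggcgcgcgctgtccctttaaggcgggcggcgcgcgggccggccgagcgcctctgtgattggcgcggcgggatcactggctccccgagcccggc
Dnmt3l (2i-specific), chr10:78049592-78049891, plus strand: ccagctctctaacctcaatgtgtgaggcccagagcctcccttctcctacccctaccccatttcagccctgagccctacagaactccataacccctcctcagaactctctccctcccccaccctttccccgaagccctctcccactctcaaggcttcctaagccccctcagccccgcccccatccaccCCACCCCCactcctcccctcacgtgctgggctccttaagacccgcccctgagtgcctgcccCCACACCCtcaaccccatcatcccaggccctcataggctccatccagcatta
Tdgf1 (common), chr9:110946109-110946408, minus strand: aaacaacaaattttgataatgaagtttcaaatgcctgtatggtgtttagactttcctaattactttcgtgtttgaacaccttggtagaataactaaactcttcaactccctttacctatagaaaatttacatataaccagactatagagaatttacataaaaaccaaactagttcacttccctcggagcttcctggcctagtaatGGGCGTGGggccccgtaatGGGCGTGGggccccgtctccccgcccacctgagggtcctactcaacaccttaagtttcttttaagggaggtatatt
Zfp42 (common), chr8:43306960-43307259, minus strand: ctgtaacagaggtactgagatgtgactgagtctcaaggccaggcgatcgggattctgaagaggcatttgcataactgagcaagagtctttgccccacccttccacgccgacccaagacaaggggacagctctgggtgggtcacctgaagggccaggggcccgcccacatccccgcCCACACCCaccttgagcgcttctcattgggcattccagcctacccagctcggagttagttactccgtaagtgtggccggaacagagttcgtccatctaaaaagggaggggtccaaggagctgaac
The Stat3 and Axin2 windows hold no match of these letters. The Dnmt3l and Tdgf1 windows hold 2 matches each and the Zfp42 window 1.

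The KLF-type core was more frequent under common regions than under regions of either medium. Of the 3633 promoter windows that a common region overlapped, 35% held GGGNGTGG on either strand (95% Wilson interval 33.5 to 36.6%), against 23.9% (18.5 to 30.2%) of 201 windows under serum-specific regions and 19.2% (14.8 to 24.5%) of 250 windows under 2i-specific regions. All 21045 windows held it in 19.6% of cases, and the 12256 windows with no region of the 4 lists in 13.3%. The variant GGGCGTGG, which is 1 of the forms of GGGNGTGG, stood in 19.9% of windows under common regions and in 6.97% and 8.8% of those under serum-specific and 2i-specific regions, against 7.04% of all windows. Base composition differed between these windows too. The median G and C content was 66.3% in the common windows and 50.7% in those without a region. It was 63.3% in the 2i-specific and 62.3% in the serum-specific windows, whose GGGNGTGG intervals overlapped. The part of base composition in the motif shares was not tested.

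Motifs of other factors were counted in the same windows. The TCF-type letters CTTTGAT stood in 1.99% of the serum-specific windows (0.777 to 5%), 3.2% of the 2i-specific (1.63 to 6.19%) and 1.43% of the common (1.09 to 1.87%), against 3.25% of all windows. The STAT-type letters TTCNNNGAA stood in 3.98% of the serum-specific windows (2.03 to 7.66%), 8.4% of the 2i-specific (5.56 to 12.5%) and 4.87% of the common, against 7.76% of all. The intervals of the serum-specific and 2i-specific windows overlapped for both motifs. The OCT-type octamer ATGCAAAT was in 2.49%, 1.6% and 1.27% of the windows of the 3 classes in the same order, against 1.68% of all. The ESRRB-type letters TCAAGGTCA were in 0%, 0% and 0.193%, against 0.337% of all. Both strands were searched for each motif, and windows of neighbouring starts of a gene can overlap.

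Peak numbers of the 2 media overlapped. Serum library 1 had 21129 peaks and serum library 2 had 34640, while the 2i libraries had 24427 and 33425. The means were 27884.5 ± 9553.7 (SD, n = 2) in serum and 28926 ± 6362.5 (SD, n = 2) in 2i, and the ranges overlapped (exact permutation test, two-sided p = 1). The share of a list's peaks that overlapped ESC H3K27ac was 65.6% and 61.7% in serum and 64.3% and 59.9% in 2i (exact permutation p = 0.667). The share within 2.5 kb of a gene start was 39.8% and 36.8% in serum and 43.1% and 37.7% in 2i (exact permutation p = 0.667). Median peak width was 178 and 214 bp in serum and 293 and 210 bp in 2i (exact permutation p = 0.667). With 2 libraries against 2, no p below 0.333 can be reached, and after Benjamini-Hochberg adjustment over 5 tests these p-values were 0.833 to 1.

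Libraries of 1 medium did not share more regions than libraries of different media in every case. Both serum libraries held 16315 regions in common, which were 83% of the regions of serum library 1 and 49.1% of those of serum library 2. Both 2i libraries held 15129 in common, 63.4% and 47.5% of their regions. Across media, serum library 2 and 2i library 1 shared 16695 regions, 50.2% and 69.9% of their regions, and serum library 2 and 2i library 2 shared 17435, 52.4% and 54.8%. Serum library 1 shared 58.6% of its regions with 2i library 1 and 60.8% with 2i library 2. As a share of all regions of a pair, the overlap was 44.6% for the serum pair and 37.3% for the 2i pair, and 30.2% to 41.3% for the 4 pairs across media. The 2i pair thus lay within the range of the pairs across media, and the serum pair lay above it.

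**Figure D1:**
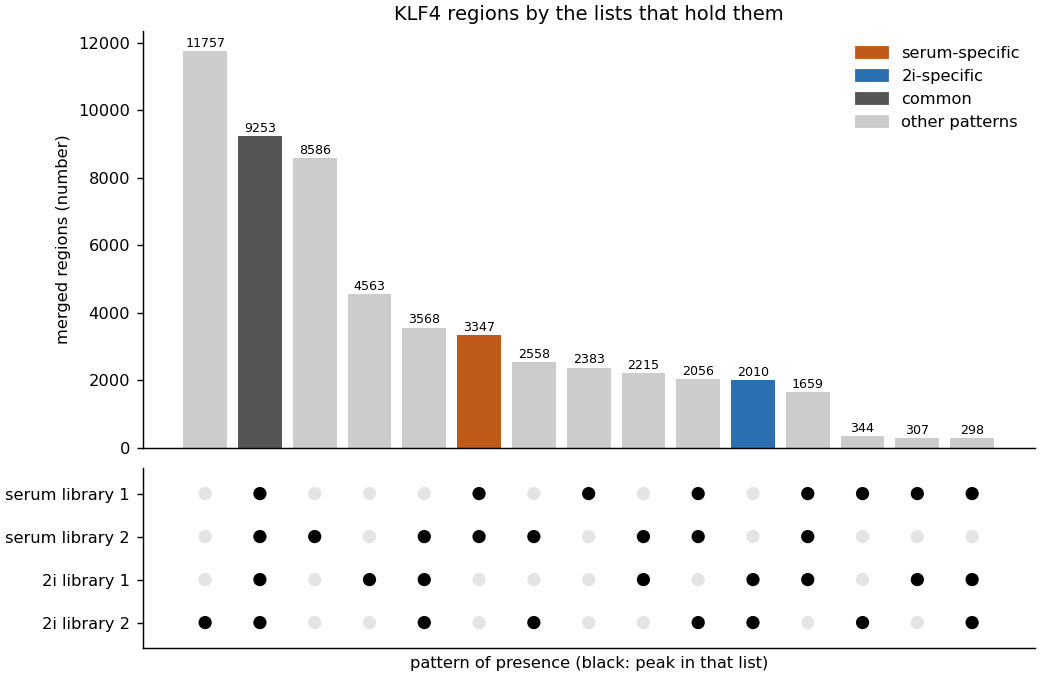
Number of merged KLF4 regions (y axis) for each of the 15 patterns of presence in the 4 lists, with black dots marking the lists that hold a peak. The common pattern holds 9253 regions, the serum-specific 3347 and the 2i-specific 2010, while the single-list patterns hold 2383 to 11757 regions.

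A peak in a single list was the most frequent state of the merged regions. It held for 27289 regions or 49.7%, while 16.9% were common, 6.1% serum-specific and 3.66% 2i-specific. A further 13.8% stood in 3 lists and 9.88% in 1 list of each medium. The 4 patterns with 1 list of each medium held 307, 344, 2215 and 2558 regions, so that the 2i-specific count lay inside their range and the serum-specific count above it. The 2215 and 2558 regions were shared by serum library 2 with a 2i library. Of the regions in 3 lists, the 3568 that missed only serum library 1 were the most frequent pattern and the 298 that missed only serum library 2 the least.

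Common regions were wider, closer to gene starts and more often acetylated than the regions of either medium. Against all 54904 regions, with a median width of 244 bp and ESC H3K27ac at 54.7%, the serum-specific regions lay near both values. The median width of common regions was 517 bp (quartiles 401 and 688), against 249 bp (202 and 316) for serum-specific and 308 bp (260 and 377) for 2i-specific regions. A merged region of 4 lists takes the span of 4 peaks, and its part in the widths was not tested. Regions that missed 1 list had medians of 349 to 387 bp, and those in a single list 124 to 221 bp. The order of serum-specific and 2i-specific widths turned when a 2i library was left out (254 against 168 bp without 2i library 1, 265 against 229 bp without 2i library 2).

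Within 2.5 kb of a gene start lay 50.4% of the common regions (95% Wilson interval 49.4 to 51.4%), 28.1% of the 2i-specific (26.2 to 30.1%) and 16% of the serum-specific (14.8 to 17.3%). The same regions moved by 1 Mb gave 8.65%, 8.41% and 6.66%. Over all 54904 regions the share was 32.7%, so that both medium-specific classes lay below it. The median distance to the nearest start was 2.32 kb for common, 12.4 kb for 2i-specific and 23.6 kb for serum-specific regions, and 32.7% of the serum-specific regions lay beyond 50 kb, against 21.2% and 13.8% of the 2i-specific and common ones. A start site itself lay inside 36.3% of the common regions. The intervals cover counting error over regions only, and the regions of a class share their 4 libraries. Leaving out 1 KLF4 library at a time kept the 2i-specific share above the serum-specific one, by the least without 2i library 1 (28.5% against 27.4%).

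ESC H3K27ac was taken as merged acetylated regions in which both ESC lists held a peak. It covered 82.4% of the common regions (81.6 to 83.2%), 54.3% of the serum-specific (52.7 to 56%) and 50.1% of the 2i-specific (48 to 52.3%). Over all regions the share was 54.7% (54.3 to 55.1%), which the serum-specific interval included and the 2i-specific interval did not reach. Regions moved by 1 Mb overlapped it in 5.63%, 3.91% and 5.07%. Peaks of both ESC lists themselves overlapped 80.3% of the common, 46.5% of the serum-specific and 44.9% of the 2i-specific regions. The order of the 2 medium-specific classes rested on the libraries and on the overlap rule. Without serum library 2 the merged acetylated regions covered 46.4% of the serum-specific and 61.5% of the 2i-specific regions. The 2i-specific class could then include regions with a peak of serum library 2. Without serum library 1 the merged acetylated regions covered 45.6% and 52.7%. With an overlap of at least 50% of the shorter interval they covered 34% and 38.4%. At gene starts the mark covered 72% of 536 serum-specific regions (68.1 to 75.6%) and 72.4% of 565 2i-specific regions (68.6 to 75.9%), with overlapping intervals. Away from starts it covered 51% of 2811 serum-specific regions (49.1 to 52.8%) and 41.5% of 1445 2i-specific regions (38.9 to 44%). Among common regions it covered 90% at starts and 74.7% away from them.

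**Figure D2:**
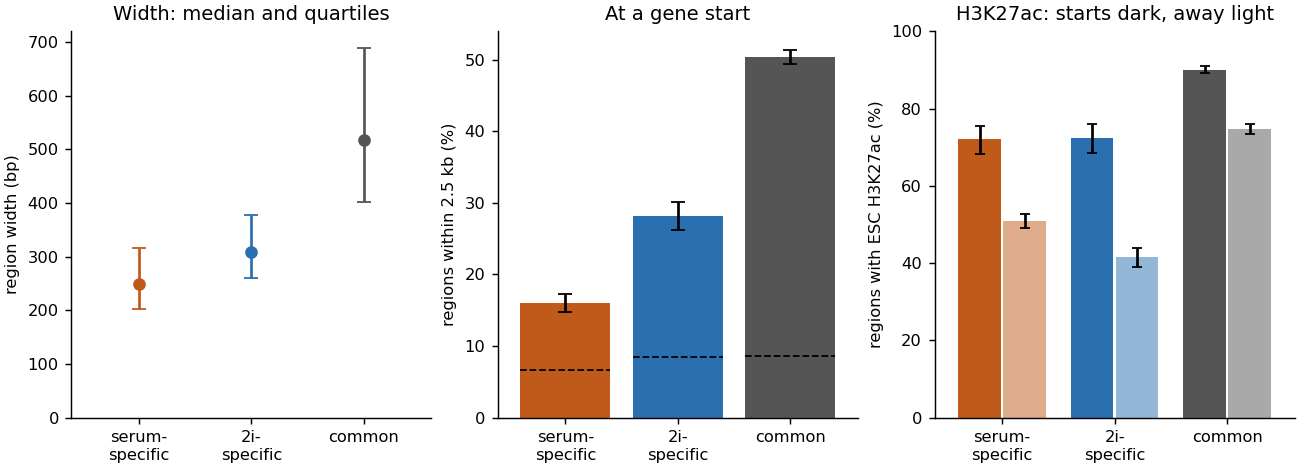
Region width in bp (left, median with quartiles), percent of regions within 2.5 kb of a gene start (middle, bars with 95% Wilson intervals, dashed line for regions moved by 1 Mb) and percent overlapping ESC H3K27ac at starts and away from them (right, bars with 95% Wilson intervals) in the 3 classes. Common regions reach 50.4% at gene starts, against 28.1% of 2i-specific and 16% of serum-specific regions.

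Scores placed most medium-specific regions in the middle of their lists. The score percentile ranks a peak within its own list by the authors' −log10 p. Its median was 43.8 and 56.3 in serum libraries 1 and 2 for serum-specific regions. For 2i-specific regions it was 36.9 and 49.6 in 2i libraries 1 and 2. Common regions had medians of 68.2 to 80.9 in the 4 lists. The top 10% of a list held 135 and 211 serum-specific regions in serum libraries 1 and 2, and 17 and 78 2i-specific regions in 2i libraries 1 and 2. Higher-scored serum-specific regions were more distal and more often acetylated: below the 25th and above the 75th mean percentile, 22.8% and 9.75% lay at a gene start and 50.3% and 68.2% carried ESC H3K27ac. In these same bins the 2i-specific regions had 32.9% and 15.6% at gene starts and 53.9% and 60.7% with ESC H3K27ac, the upper bin holding 122 regions.

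The best-scored regions of each class were named by the mean score percentile, with the nearest protein-coding gene start or, for genes without a listed start, gene end. The strongest serum-specific region lay 36.6 kb from Rerg, which encodes a RAS-like GTPase, with the authors' folds of 18.7 and 13 in the serum lists and ESC H3K27ac in both lists (chr6:137017676-137018205). The next was 54.1 kb upstream of Rgs6, a regulator of G-protein signalling, with folds of 13.4 and 11 and no ESC H3K27ac. Another lay inside Tbc1d8, 48.1 kb past its start, with folds of 11.9 and 9.06. Regions near Zfp568, Ubr3, Lin7c, Nav2, Tlcd2, Basp1 and Twistnb completed the 10. The one of Nav2 lay inside the gene, 100.9 kb past its start, and the others lay 1.75 to 81.1 kb from the nearest start or gene end. Of these 10 regions, 9 had H3K27ac in both ESC lists, 7 had it in both day 9 lists and 9 held KLF4 in at least 1 day list, the exception being the one 3.75 kb upstream of Ubr3.

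The strongest 2i-specific region lay 16.3 kb upstream of Copg1, which encodes a coatomer subunit, with folds of 13.6 and 10.6 in the 2i lists and ESC H3K27ac in both lists (chr6:87871239-87871636). A region 9.13 kb upstream of Dus1l had folds of 15.3 and 5.39. Another lay inside Hspa4, a heat-shock protein gene, 9.14 kb past its start, with folds of 11.4 and 6.84. Regions by Nol4l, Aurkc, Liph, Cerk, Sv2b, Lingo1 and Rbm15 made up the 10, and the one near Aurkc, a kinase of meiosis, lay 10 kb past its start. Of the 10 regions, 7 had H3K27ac in both ESC lists, none had it in a day 9 or fibroblast list, and 2 held KLF4 in a day list.

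The 6 best common regions, all at or near the 100th percentile of each list, held KLF4 in all 6 day lists as well. They lay over the start of Ass1 (folds 39, 13.9, 35.2 and 36.1 in the 4 lists), 32.5 kb from Grap (48.3, 18, 49.8 and 19.2), in Map3k6, in Grin1 near Lrrc26, in Prph and in Src. Ass1 encodes argininosuccinate synthase, Grap an adaptor and Src a tyrosine kinase. ESC H3K27ac was absent from both lists at the regions in Map3k6 and Grin1 and present in both at the other 4.

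KLF4 of the day 3 to day 9 cells, which were grown without inhibitors, occupied serum-specific regions more often than 2i-specific ones when both libraries of each medium defined the classes. At day 3, 43.6% and 33.2% of the serum-specific regions held a KLF4 peak in libraries 1 and 2, against 17% and 10.3% of the 2i-specific regions. At day 6 the shares were 36.6% and 42.9% against 14.6% and 9.55%, and at day 9 they were 43.7% and 45.7% against 11.3% and 13.6%. The groups did not overlap, and common regions stood higher still, at 61.3% to 71.6%. Serum-specific regions moved by 1 Mb gave at most 0.956% and 2i-specific ones at most 1.79%.

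The difference was 28.2 ± 5.08 percentage points (SD, n = 6 libraries), positive in 6 of 6. The exact two-sided sign-flip test over the 6 libraries gave p = 0.0312, the smallest it can give, and 0.156 after adjustment over 5 tests, so the difference did not pass the threshold of 0.05. It was 28.3 points in the 4 day libraries of batch EA-3702, which also holds 2i library 1, and 28.1 in the 2 of another batch. The size depended on the lists that defined the classes. Without serum library 2 it was 0.893 points (exact sign-flip p = 0.625) and without serum library 1 it was 13.3. Without a 2i library it was 37.9 and 31.6. Leaving out serum library 2 also let regions with its peaks into the 2i-specific class, which then held 5614 regions. In the 4 lists, 3568 regions missed only serum library 1. The part of this reclassing in the change was not tested. The 6 libraries share the same 2 sets of regions, so this test says nothing of the spread between ESC libraries.

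At single-region level, 69% of the 2i-specific regions held no KLF4 peak in any of the 6 day lists, against 33.7% of the serum-specific and 14.3% of the common regions. Without serum library 2, when regions with its peaks could join the 2i-specific class, these shares were 47.3% for 2i-specific and 47.6% for serum-specific regions. KLF4 stood in all 6 day lists at 37 2i-specific regions (1.84%), 652 serum-specific regions (19.5%) and 4119 common regions (44.5%). The gap was wider away from gene starts, where 45.5% of serum-specific and 8.58% of 2i-specific regions held KLF4 at day 9 on average. At gene starts these shares were 41% and 22.3%. The gap also widened with score: above the 75th mean percentile 58.5% of the serum-specific and 11.5% of the 2i-specific regions held KLF4 at day 9, and below the 25th 30.7% and 8.56%.

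**Figure D3:**
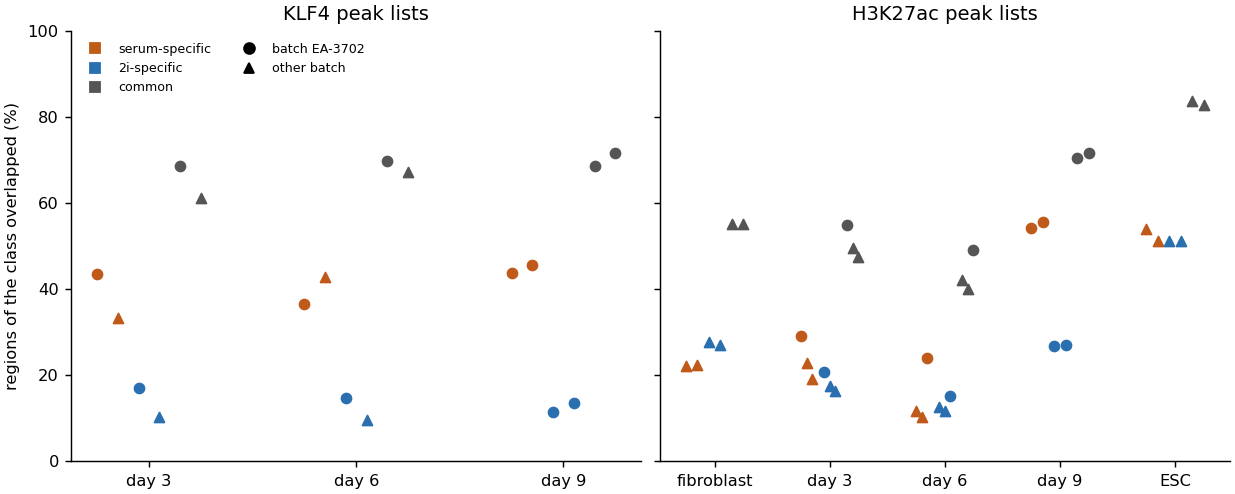
Percent of the regions of each class (y axis) overlapped by each KLF4 list of day 3 to 9 (left) and each H3K27ac list from fibroblasts to ESC (right), 1 point per library, circles for batch EA-3702 and triangles for other batches. Serum-specific regions lie above 2i-specific ones in all 6 KLF4 lists and in both day 9 H3K27ac lists, by 27.6 and 28.6 points in the latter.

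H3K27ac of the other stages separated the medium-specific classes at day 9. In the day 9 lists 54.3% and 55.5% of the serum-specific regions overlapped H3K27ac, against 26.7% and 26.9% of the 2i-specific regions, a difference of 28.1 ± 0.747 points (SD, n = 2). In ESC the shares were 53.9% and 51.3% against 51.3% and 51.1%, and in fibroblasts 22% and 22.4% against 27.6% and 27%. Day 3 gave 23.6 ± 5.04% against 18.1 ± 2.26% and day 6 gave 15.3 ± 7.48% against 13.2 ± 1.86% (SD, n = 3). Both day 9 lists belong to batch EA-3702, and the day 3 and day 6 lists of that batch showed the larger differences of their stages (8.36 and 8.68 points, against −1.3 to 5.31 in the others), so stage and batch cannot be told apart at day 9. Without serum library 2 the day 9 difference was 2.56 points and without serum library 1 it was 15.2. The 2i-specific class could then include regions with a peak of the serum library left out.

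Acetylation in ESC without acetylation at day 9 was more frequent among 2i-specific regions. H3K27ac stood in both ESC lists and in neither day 9 list at 444 of them (22.1%), against 431 serum-specific (12.9%) and 1292 common regions (14%). The reverse state, both day 9 lists and neither ESC list, held 488 serum-specific (14.6%), 51 2i-specific (2.54%) and 300 common regions (3.24%). Away from gene starts, day 9 H3K27ac covered 51.2% of the serum-specific and 12.9% of the 2i-specific regions, and fibroblast H3K27ac covered 15.1% and 13.3%. Without serum library 2 the share acetylated in ESC and not at day 9 was 19.5% of the 2i-specific and 10.9% of the serum-specific regions. The gap was smaller without 2i library 1 (16.3% against 12.2%) and without 2i library 2 (16.2% against 14.3%). Day 9 H3K27ac away from starts covered 23.3% of the 2i-specific and 39% of the serum-specific regions without serum library 2. The order of the 2 classes in these 3 measures was the same with each KLF4 library left out in turn. These are descriptions of the same regions and have no test.

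**Figure D4:**
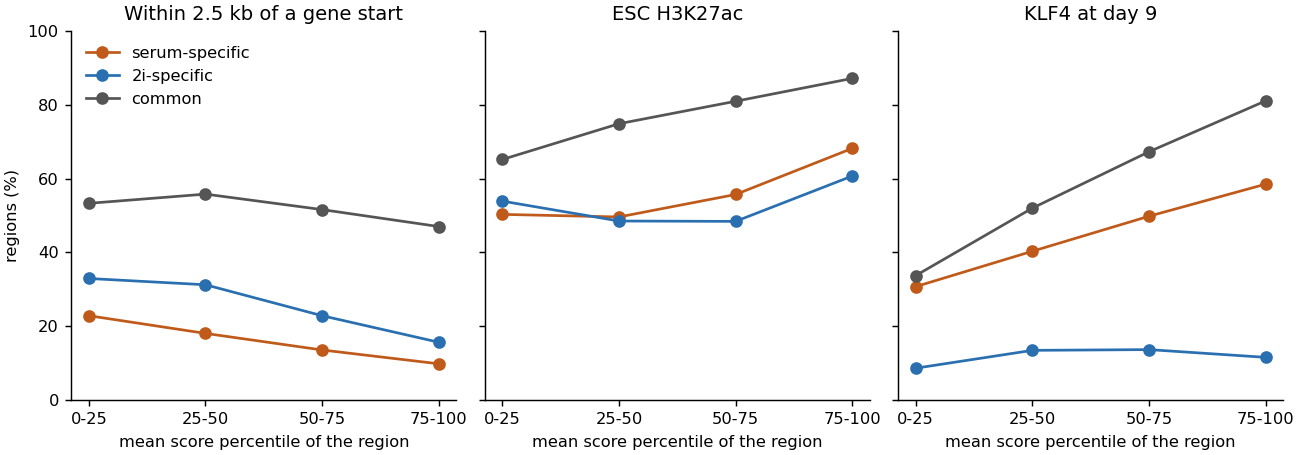
Percent of regions of each class (y axis) within 2.5 kb of a gene start, overlapping ESC H3K27ac, and overlapped by KLF4 at day 9 (mean of 2 lists), in 4 bins of the mean score percentile of the region (x axis). KLF4 at day 9 reaches 58.5% of serum-specific and 11.5% of 2i-specific regions in the upper bin.

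Genes near the regions were read against all 21523 protein-coding genes, of which 8.01% had a serum-specific region in the gene or within 2.5 kb of it, 6.21% a 2i-specific region and 28.9% a common region. Long genes have more room for a region, and the lists may differ in gene length, which was not tested. Of the 188 genes in 12 lists, 22 had a serum-specific, 22 a 2i-specific and 82 a common region. A gene could count for several classes. With peaks within 100 bp merged, 21 and 19 of the first 2 sets kept a region of their class, and so did all 20 of the best-scored medium-specific regions named above.

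Genes of the naive pluripotency network were mainly bound in both media. Of 17 such factors, 12 had a common region, 1 a serum-specific and 2 a 2i-specific one. Nanog carried a common region over its start, with folds of 9.61 and 4.57 in serum and 5.2 and 5.7 in 2i. Klf4 itself had a common region of 2001 bp over its start, with folds of 6.55 and 4.19 in serum and 7.21 and 7.61 in 2i. Esrrb, an orphan nuclear receptor repressed by TCF7L1 and raised by GSK3 inhibition, held 8 common regions within the gene. The region 1648 bp upstream of a Pou5f1 start, in the area of its distal control elements, had folds of 10.5 and 10.4 in serum and 3.53 and 12 in 2i. Sox2, Klf2 and Prdm14 fell outside the 3 classes. The region just upstream of the Sox2 start was in serum library 2 and both 2i libraries. Another Sox2 region, 3950 bp past the start, was in both serum libraries and 2i library 2. The region over the Klf2 start was in serum library 2 and 2i library 1, and a peak of 2i library 2 lay 56 bp past that start.

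Of this list, Nr0b1, which encodes the orphan receptor DAX1, had a serum-specific region 1688 bp past its start with folds of 4.24 and 2.69. Dppa3, which encodes STELLA, a protein that limits maintenance of DNA methylation, had a 2i-specific region inside the gene with folds of 5.18 and 3.12. Another region inside Dppa3 was in both serum lists and 2i library 1, with a fold of 5.78 in serum library 1. Sall4, a zinc-finger factor, had a 2i-specific region in its flank with folds of 4.12 and 3.69, and common regions inside the gene and in its flank. Among 13 formative and primed factors, 0 had a serum-specific and 2 a 2i-specific region. These 2 were Sox11, whose 2i-specific region covered the start with folds of 4.75 and 3.05, and Dnmt3a. Sox11 also had a region 2982 bp past its start in both serum lists and 2i library 2.

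Targets and feedback regulators of MEK and ERK had regions of both kinds. Of 18 genes, 5 had a serum-specific, 4 a 2i-specific and 11 a common region. Dusp6, the ERK phosphatase, had a serum-specific region 1341 bp upstream of its start, with folds of 3.28 and 2.95 and ESC H3K27ac in both lists. Spred2, an inhibitor of RAS and ERK signalling, and Etv4, an ETS factor downstream of ERK, had 1 serum-specific region each. Etv5, a related ETS factor, held 2 serum-specific regions, 8654 and 11218 bp past its start, and 1 2i-specific region 42847 bp past it, with folds of 5.37 and 5.06. Phlda1 held 1 region of each class. Egr1, an immediate early gene, and Spry4, an antagonist of receptor kinase signalling, had a 2i-specific region in the flank. Merging peaks within 100 bp ended the 2i-specific class of the Phlda1 and Egr1 regions.

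WNT pathway genes, the side of the GSK3 inhibitor, were split evenly: 3 of 19 had a serum-specific, 3 a 2i-specific and 7 a common region. Those with a 2i-specific region were Axin2, Znrf3 and Notum. Axin2, a scaffold of the complex that degrades β-catenin, had a region over its start with folds of 4.12 and 3.05 in the 2i lists, and it left the class, with a peak of serum library 2 added, when peaks within 100 bp were merged. Znrf3, a ligase that removes WNT receptors, had a 2i-specific region inside the gene with folds of 6.45 and 3.64, and a common region as well. Notum, an enzyme that inactivates WNT ligands, had a region in its flank with folds of 6.04 and 3.49. All 3 2i-specific regions carried ESC H3K27ac in both lists. Gsk3b, which encodes 1 of the forms of GSK3, had a serum-specific region 73014 bp past its start and a common one over the start. The other genes with a serum-specific region were the homeobox gene Cdx1 and Lgr5, a receptor for R-spondins. The serum-specific regions of Cdx1 and Lgr5 had ESC H3K27ac in neither list and that of Gsk3b in both. That of Cdx1 left the class, with a peak of 2i library 2 added, when peaks within 100 bp were merged.

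Among LIF, STAT3 and BMP genes, 5 of 16 had a serum-specific, 2 a 2i-specific and 12 a common region. Stat3, the transcription factor activated by LIF, had a weak serum-specific region over its start, with folds of 3.28 and 1.87 and score percentiles of 25.6 and 5.17. Lifr, a subunit of the LIF receptor, held 2 serum-specific regions, 1 of which became common when peaks within 100 bp were merged, and Pim1, a kinase gene induced by STAT3, had 1 within 1337 bp of its start. Smad6 and Smad7, inhibitory SMADs of the BMP and TGF-β pathways, had 1 and 3 serum-specific regions, and Smad7 also 1 2i-specific region. Jak1, the kinase that signals from the receptor, had a 2i-specific region 108935 bp past its start. Socs3, the feedback inhibitor of the pathway, had a common region over its start with folds of 6.93 and 3.26 in serum and 5.79 and 3.4 in 2i.

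Of 9 DNA methylation genes, 2 had a serum-specific, 2 a 2i-specific and 4 a common region. Dnmt3l, the cofactor of the de novo methyltransferases, had all 3 kinds. A serum-specific region lay 1163 bp past a start, with folds of 5.01 and 3.42. A 2i-specific one lay over another start, with folds of 4.06 and 3.19. Between these lay a common region with folds of 5.9 and 7.32 in serum and 6.75 and 3.97 in 2i. Tet2, a 5-methylcytosine oxidase, held 2 serum-specific regions, 1 with folds of 6.38 and 2.35. Dnmt3a, a de novo methyltransferase, held 2 2i-specific regions, with folds of 2.65 and 3.58 and of 2.71 and 2.32.

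Glycolysis genes had the highest share of 2i-specific regions among the 12 lists, 5 of 15 or 33.3%, against 1 with a serum-specific region, and 11 had a common one. Hk1 and Hk2, the hexokinases of the first step, had 2i-specific regions with folds of 6.74 and 3.97 and of 2.73 and 3.97. Pfkp and Pkm, which encode a phosphofructokinase and pyruvate kinase, and Slc2a1, the glucose transporter GLUT1, had 1 each. All 5 regions carried ESC H3K27ac in both lists. Hk2 also had a serum-specific region in its flank with folds of 5.39 and 5.15. The list is small, and its share against 6.21% of all genes was not tested.

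Of 13 epithelial junction and keratin genes, 3 had a serum-specific, 1 a 2i-specific and 10 a common region. Tjp1, which encodes the tight junction protein ZO-1, held the best-scored serum-specific region of all listed genes, 59204 bp upstream of a start inside the gene, at percentiles of 98 and 93.3 with folds of 10.6 and 4.34. Cdh1, the gene of E-cadherin, held 3 serum-specific and 1 2i-specific region. Prdm1 alone of 13 germline genes had a 2i-specific region, with folds of 4.07 and 6.75. Gata3 alone of 16 lineage factors had a serum-specific region, and no gene of that list had a common one. Of 12 fibroblast genes, Col1a1 alone had a medium-specific region, a serum-specific one, and of 32 ribosomal protein genes Rps12 alone, a 2i-specific one over its start.

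**Figure D5:**
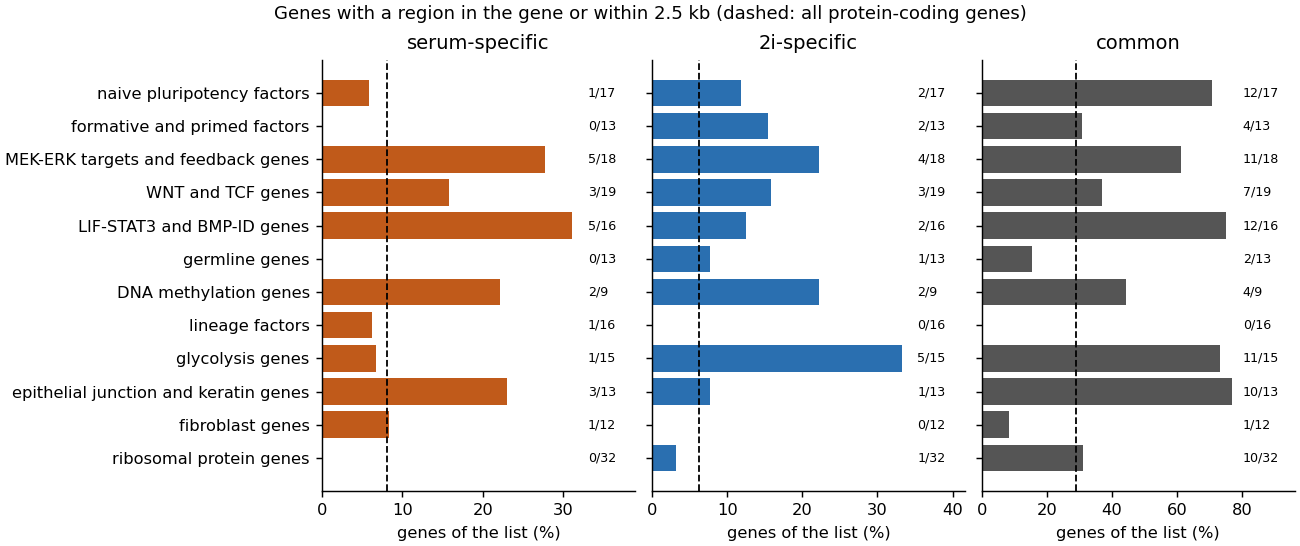
Percent of the genes of 12 lists (x axis) with a serum-specific, 2i-specific or common region in the gene or within 2.5 kb of it, counts at the right of each bar, dashed lines at the share of all 21523 protein-coding genes (8.01%, 6.21% and 28.9%). Epithelial and LIF-STAT3 lists lead for common regions with 10 of 13 and 12 of 16 genes.

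The classes were spread unevenly over some chromosomes. The X chromosome held 2.06% of the serum-specific and 2.34% of the 2i-specific regions, against 0.789% of the common ones and 1.4% of all regions. Chromosome 3 held 5.8% of the serum-specific and 2.94% of the 2i-specific regions, against 4.65% of all regions. Chromosome 8 held 6.97% of the peaks of 2i library 1, against 5.36% to 5.47% of the other 3 lists, and 6.37% of the 2i-specific and 4.21% of the serum-specific regions, against 5.5% of all regions. The part of that library's excess on chromosome 8 in the class was not tested.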

How the data were processed

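The KLF4 and H3K27ac ChIP-seq peak lists used here were called library by library, per the files, with no pooled list. The submitters' processing notes name cutadapt 1.8.1, Bowtie2 2.2.5, deepTools 2.3.6, MACS2 2.1.1 and the build mm10, with no role given. For every peak the deposited files give a score, the fold (ratio) over background, and −log10 of a p-value and a q-value, all the authors' values, used only within a list. Read counts were not used and depth is unknown. Intervals overlapped at 1 bp or more. Stages were compared by the share of a class a list overlaps. Gene starts were 21045 RefSeq starts of 17274 genes (GRCm38.p6) and, for 4249 genes not in that table, both gene ends. Tests were exact, permutation of 4 libraries and sign flips of 6, with Benjamini-Hochberg adjustment over 5 tests. Code was tested on simulated lists (python 3.11.15, numpy 2.4.6, pandas 2.3.3). Alternatives were the overlap, score, q-value and window choices and each library left out. Regions are named as the 10, 10 and 6 best by mean score percentile, and listed genes by any medium-specific region within 2.5 kb. The members, lists and tests were chosen with earlier results of these data known.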

Additional observations from a re-analysis of the deposited data

Results flagged for a closer look

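The difference between serum-specific and 2i-specific regions in their H3K27ac share was negative in both fibroblast lists, with a mean of −5.13 points, and positive in every list of 3 other stages, with means of 5.48 points at day 3, 28.1 points at day 9 and 1.36 points in ESC. At day 6 the lists were split, with −0.935, −1.3 and 8.68 points and a mean of 2.15. The difference between the stages was not tested. Both day 9 lists are of batch EA-3702. When single KLF4 libraries were left out the day 9 mean stayed positive, at 2.56 without serum library 2, while the other means changed sign. The fibroblast mean was 5.2 without 2i library 1. Without serum library 2 the day 3 mean was −9.22 and the day 6 mean −9.91. The ESC mean was −10.1 and −18.2 without serum library 1 and 2.

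The 4 KLF4 lists held 143 peaks on chromosome Y, outside the chromosomes compared, 28 and 42 in the serum lists and 25 and 48 in the 2i lists. No control list was used to set a background for them.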

How the results depend on the processing

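With the top 50% of each list by score, serum-specific, 2i-specific and common regions numbered 1990, 1231 and 4200, with ESC H3K27ac at 65.9%, 64.3% and 86.3%, median widths of 300, 383 and 567 bp and gene-start shares of 18.4% and 37.9% for the first 2. At a q-value of at most 0.01 the counts were 1764, 963 and 3885, H3K27ac 69.1%, 62.1% and 86.2%, starts 17.7%, 33% and 47.5%, widths 304, 367 and 570 bp, and the serum minus 2i difference in mean peak number was 1043.5, in place of −1041.5. With 21129 top peaks per list H3K27ac was 59.2%, 56.5% and 84%, widths 269, 337.5 and 537 bp, and the 2i-specific start share 32.9%. An overlap of 50% of the shorter interval gave H3K27ac of 34%, 38.4% and 63.1%, so that the medium-specific classes changed order. Peaks of 200 bp about the midpoint gave widths of 232, 250 and 304 bp, starts of 17.7% for serum-specific and 49.3% for common regions, and H3K27ac of 79.2% for common ones. Merging within 100 bp gave widths of 315 and 544 bp for 2i-specific and common regions. Single ESC H3K27ac lists gave 83.7% for common and 51.3% for serum-specific regions. Start shares were 9.11%, 18.4% and 42.7% at 500 bp, 32.7%, 45.2% and 63.4% at 10 kb, 12.4%, 21.1% and 40.6% with listed starts only, and 17.9% for serum-specific regions with either end of every gene.

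When a KLF4 library is left out, the class of its medium rests on 1 list. The class of the other medium can then hold regions with a peak of that library. Leaving out each KLF4 library in turn gave 5103 to 11986 serum-specific, 2308 to 14188 2i-specific and 9530 to 12823 common regions. Their H3K27ac shares ran from 45.6% to 61.2%, 42% to 61.5% and 78.4% to 81.8%, start shares from 19% to 27.4%, 28.5% to 38.5% and 45.4% to 50.4%, and widths from 143 to 265, 168 to 344 and 430 to 480 bp. Serum minus 2i differences ran from −7797 to 5714 peaks, −0.616 to 3.77 points of H3K27ac, −4.86 to 0.589 points of gene starts and −97 to −14 bp. The KLF4 day difference ran from 0.893 to 37.9 points; 28.1 without and 28.3 with only batch EA-3702 could not pass 0.05 with 2 and 4 libraries (exact p = 0.5 and 0.125). It was 33.1 points away from gene starts and 16.4 at them. H3K27ac differences ran from −15.1 to 5.2 points (fibroblast), −9.22 to 11 (day 3), −9.91 to 8.21 (day 6), 2.56 to 30.3 (day 9) and −18.2 to 16.7 (ESC), and regions without KLF4 in the day lists from 29.3% to 47.6% (serum-specific) and 47.3% to 79.1% (2i-specific). At 10 kb, 34, 29 and 101 listed genes had a region of the 3 classes. The choices made after seeing the data were the listed starts, either gene end, batch EA-3702 alone and each day library left out. The split by gene starts, the score bins and the 100 bp check of named regions were too. So were the H3K27ac comparisons of the stages, day 9 included, and the regions without KLF4 in the day lists. Their library omissions were chosen then as well. The states acetylated in ESC or at day 9 alone, and day 9 H3K27ac away from gene starts, also belong here. The causes were not tested. No paired analysis was possible because all 4 KLF4 titles carry the same replicate number in different batches.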
